A study of Nothobranchius furzeri and Aphyosemion australe and Iconisemion striatum with 145 samples.

Results

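The lineage bHLH transcription factors of the African turquoise killifish (Nothobranchius furzeri) were examined in embryo bodies at the pre-diapause stage. The genes were taken by name: 54 of the 25122 rows of the count table matched a fixed pattern of bHLH symbols. The pattern uses no measured value, though members were chosen with earlier results of these data known. Of these 54, 52 are bHLH genes. The remaining pair matched by the beginning of the name only. One is twistnb, an older name of a subunit of RNA polymerase I. The other is hif1an, the hydroxylase that acts on HIF alpha proteins. The 4 myogenic genes myod1, myf5, myf6 and myog were left out by the rule.

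The series profiled pre-diapause embryos of 3 killifish species and single embryos from a knockout experiment, and the bHLH genes could be read by name in the African turquoise killifish. The 4 libraries used here, numbered 1 to 4 as in the sample labels, came from GRZ strain embryos with a Kupffer's vesicle and 15 to 22 somites by the labels. Each library was made from a pool of 8 to 10 embryo bodies, from which yolk, chorion and enveloping layer had been removed. The embryos were first clutches of young parents, from which the study expected most to skip diapause, and none of the 4 pools was taken in diapause. A pool average does not show differences between the embryos in it, and no contrast between conditions exists within this group. The lyretail libraries (6) and red-striped libraries (5) were counted on gene predictions without gene names and are not used here.

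A basic helix-loop-helix (bHLH) protein binds DNA as a dimer, mostly at the short E box motif. E proteins are made in most tissues and pair with tissue-restricted bHLH proteins that set neural, mesodermal or blood fates. Id proteins lack the basic region that contacts DNA and hold E proteins in dimers that do not bind it. Other branches of the family act in growth (Myc, Max and Mxd), lysosome and pigment cell programs (MiT/TFE), and the response to oxygen, to ligands and to the daily cycle (the PAS proteins).

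Depth ranged from 25985703 to 41191533 counts per library. Levels are given as CPM, the counts a library of 1000000 would hold. CPM is not divided by gene length, since no transcript lengths of the counted genome were used here, so it compares libraries for one gene and does not rank genes by transcript number. Every pair of libraries differed by more than counting noise, with a chi-square per degree of freedom of at least 82.9 over rows with 20 or more counts in the pair. Nothing in the labels says how the pools were bred or sequenced in batches. Library 2, the deepest, stood furthest from the others: its mean Spearman correlation with them across genes was 0.918, against 0.943 to 0.957 for the other 3. Among markers of the embryo body, all 3 listed neural tube genes, all 4 listed paraxial mesoderm genes and all 3 listed neural crest genes reached 1 CPM in every library. So did foxa2 (endoderm), shh (notochord), and myl7 and tnnt2 (heart). Of the neuron markers, elavl3 reached it and elavl4, with a mean of 0.732 CPM, did not. Only 1 of 3 endoderm names, 1 of 6 notochord names and 2 of 3 heart names chosen are symbols of the table. The marker names chosen for blood, endothelium, Kupffer's vesicle and the enveloping layer are not among the symbols of the table and were not checked. In bulk samples, fewer cells of a type and less RNA per cell cannot be told apart.

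With at least 1 CPM in every library taken as expressed, 38 of the 54 rows (36 of the 52 bHLH genes) were expressed. This limit was met by 53.7% of all rows, and over the 10533 rows with a gene symbol, to which all members belong, 75.0% did. The share of 70.4% among the 54 is thus between these backgrounds and is no result about bHLH genes as a class. The median over the 52 bHLH genes of the mean level was 6.03 CPM. The 16 rows below the limit were tcf4, ptf1a, olig1, atoh7, neurod6, bhlhe23, msc, tcf24, mxd4, tfeb, npas1, npas3, npas4, ahrr, epas1 and bhlhe41. For mxd4, npas1 and ptf1a only some libraries were below it. At a limit of 5 CPM in every library, 24 rows passed. The share of all rows at that limit was not computed.

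**Figure D1:**
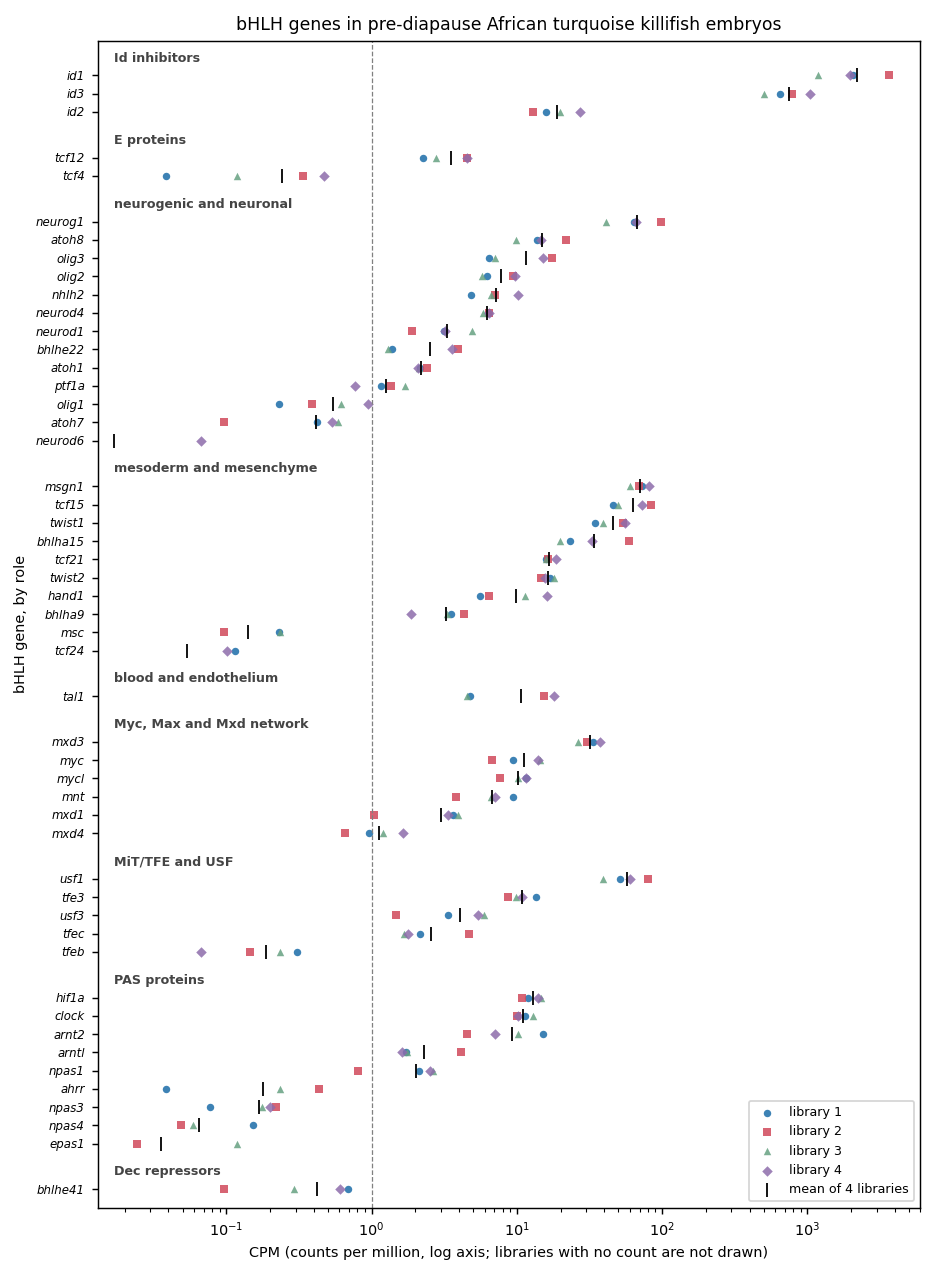
CPM on a log axis for 50 bHLH genes with at least 1 count, grouped by role. Each point is a library, the black bar is the mean of the 4 libraries, and the dashed line marks 1 CPM. The Id genes id1 and id3 lie at 506 to 3626 CPM, and all other genes drawn lie below 100 CPM. Rows named through RefSeq, such as id4, are not drawn.

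The Id inhibitors held most of the reads on the 52 bHLH genes. This set leaves out rows named through RefSeq, which summed to a mean of 507 CPM. It also leaves out bHLH genes outside the pattern, such as myf5, with a mean of 78.7 CPM. The gene id1 had 2063, 3626, 1186 and 1967 CPM in libraries 1 to 4, a mean of 2211 ± 1022 CPM (SD, n = 4). It was the row with rank 52 by mean CPM in the whole table. The gene id3 had 649, 786, 506 and 1045 CPM, a mean of 746 ± 229 CPM. Together they dominated this set: id1 took 53.4% to 71.0% of the counts on the 52 bHLH genes and id3 took 15.4% to 28.3%. The other 50 bHLH genes summed to 541, 695, 501 and 674 CPM. The gene id2 was far lower, with 15.9, 12.9, 20.0 and 27.2 CPM and a mean of 18.99 ± 6.17 CPM. The 3 genes did not share an order over the pools, since id1 was highest in library 2, id3 and id2 were highest in library 4, and id2 was lowest in library 2.

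E proteins with a symbol in the table were low. The gene tcf12 had 2.27, 4.56, 2.80 and 4.53 CPM, from 59 to 188 counts, and tcf4 had 0.0385, 0.340, 0.118 and 0.469 CPM, from 1 to 14 counts. In library 1 the single count of tcf4 gives an exact 95% Clopper-Pearson interval of 0.000974 to 0.214 CPM, which like all such intervals here covers counting error only. The symbol pattern misses most E protein reads. The row LOC107384145, which a RefSeq gene table names tcf3b, had 49.3, 18.4, 47.4 and 46.0 CPM, a mean of 40.3 ± 14.7 CPM. It was lowest in library 2, while the other 3 lay between 46.0 and 49.3 CPM. Another Id gene, id4, is likewise listed by a LOC number only, and had 154, 176, 114 and 152 CPM.

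The log2 ratio of summed Id counts (id1, id2, id3) to summed E protein counts (tcf12, tcf4) was 10.21, 9.82, 9.20 and 9.25 in libraries 1 to 4, a mean of 9.62 ± 0.48 (SD, n = 4). With id4 and tcf3b added, the ratio was 5.80, 7.63, 5.18 and 5.97, a mean of 6.14 ± 1.04. Library 1 was highest with the symbol rows and below libraries 2 and 4 with the wider set. With id4 added but not tcf3b, the mean was 9.69 ± 0.48, so the lower value came with tcf3b. Id counts exceeded E protein counts in 4 of 4 libraries with either set. Any Id or E protein copies in LOC rows without a RefSeq symbol would be in neither set. On the linear scale the wider set gave 36.3 to 198 Id counts per E protein count. These are ratios of counts, not of molecules, because transcripts of unequal length give unequal counts.

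**Figure D2:**
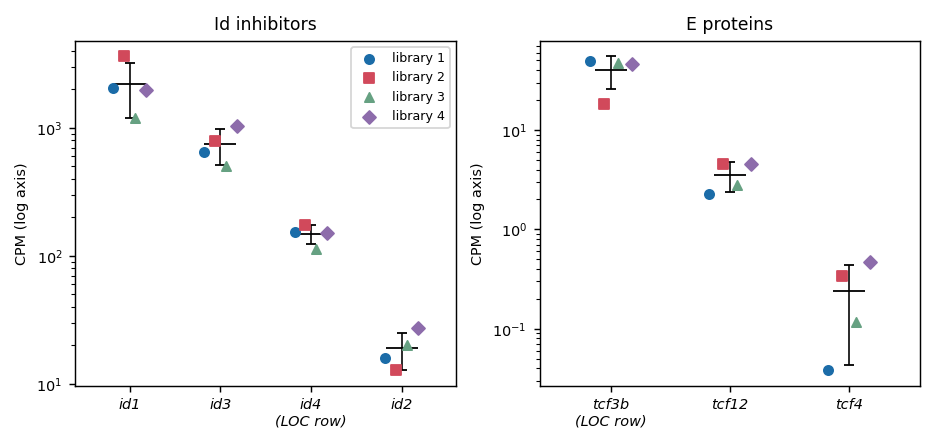
CPM on a log axis of the Id genes (left panel) and the E protein genes (right panel). Points are libraries 1 to 4, the horizontal bar is the mean and the error bars are the SD (n = 4), and LOC row marks genes named through RefSeq. Library 2 is the highest for id1, at 3626 CPM, and the lowest for tcf3b, at 18.4 CPM.

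Neurogenic and neuronal bHLH genes numbered 15, of which 10 were expressed. The proneural gene neurog1, which starts sensory and cranial ganglion neurons in vertebrates, had the most reads of them, with 64.6, 98.7, 40.9 and 66.5 CPM and a mean of 67.7 ± 23.7 CPM. It was highest in library 2 and lowest in library 3. The atonal relative atoh8 had the same order, with 13.7, 21.8, 9.90 and 14.7 CPM. The gene olig3, which marks dorsal neural progenitors, had 6.39, 17.4, 7.13 and 15.1 CPM, so libraries 2 and 4 lay above 1 and 3. The gene olig2, needed for motor neuron progenitors, had 6.20, 9.37, 5.75 and 9.76 CPM, with the same pools above. Of the genes that act as neurons differentiate, nhlh2 had 4.81, 7.04, 6.66 and 10.1 CPM and was highest in library 4. The gene neurod1 had 3.16, 1.89, 4.95 and 3.22 CPM, and alone among the expressed neuronal genes had its lowest value in library 2.

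Some neurogenic genes hardly varied between the pools. The gene neurod4 had 6.35, 6.46, 5.84 and 6.44 CPM, a coefficient of variation of 4.69% where counting alone gives 7.08%. The gene atoh1, known for hair cells and hindbrain neurons, had 2.16, 2.43, 2.12 and 2.08 CPM, at 7.18% against 11.9% from counting. For both genes a difference between the pools was not detectable at this depth. The gene bhlhe22 had 1.39, 3.93, 1.30 and 3.55 CPM, with libraries 2 and 4 again above the others. The pancreas and inhibitory neuron gene ptf1a had 0.771 to 1.71 CPM from 23 to 58 counts.

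Other neuronal genes were at or near the limit of detection. The retinal gene atoh7 had 4 to 20 counts per library and olig1 had 6 to 28. The gene neurod6 had 2 counts in library 4 and 0 in the other 3. The gene bhlhe23 had 0 counts in every library, which allows up to 0.0728 CPM in the deepest and 0.115 CPM in the shallowest library at 3 counts each. Among RefSeq-named rows, olig4 had 19.9, 45.0, 12.9 and 27.2 CPM, in the same order of libraries as neurog1. The row named atoh1b had 4.31, 4.20, 2.71 and 3.52 CPM. It carried more counts in every library than the one listed as atoh1.

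Proneural targets and neuronal genes outside the rule were read beside them. Of 9 names chosen, 6 are symbols of the table and 4 of these were expressed. The Delta ligand dld had 33.0, 62.7, 41.9 and 54.0 CPM, and the neuron marker elavl3 had 57.8, 34.5, 58.1 and 51.0 CPM. For elavl3, insm1, elavl4 and neurod1, library 2 was the lowest, whereas for neurog1, olig3 and dld it was the highest. The remaining listed targets did neither. The Delta ligand dll4 was highest in library 1, at 2.46 CPM against 1.29 CPM in library 2. The gene stmn2 was lowest in library 4, at 2.92 CPM against 3.06 CPM in library 2. Genes outside this target list went other ways. Of those that act as neurons differentiate, nhlh2 had 7.04 CPM in library 2 and was lowest in library 1. For neurod4 no difference between the pools was detectable. The neural tube markers sox2 and pax6 were lowest in library 2, at 9.44 and 8.64 CPM. The gene insm1 had 0.534 CPM in library 2 and 3.82 to 6.40 CPM in the others.

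Among the 10 mesoderm and mesenchyme genes, 8 were expressed. The gene msgn1, which acts in the presomitic mesoderm before somites form, had 72.3, 68.8, 60.6 and 80.6 CPM, a mean of 70.6 ± 8.32 CPM. It had 1880 to 2835 counts per library. Its highest library was 1.33 times its lowest. The gene tcf15 (paraxis), which acts as somites become epithelial, had 46.1, 84.2, 49.7 and 72.3 CPM, a mean of 63.1 ± 18.2 CPM, with libraries 2 and 4 above 1 and 3. The paraxial mesoderm marker meox1 was also higher in libraries 2 and 4, at 50.8, 97.1, 50.5 and 92.0 CPM in libraries 1 to 4. The listed marker pax3 had another order, with 1.00, 1.19, 1.89 and 2.75 CPM, so libraries 3 and 4 lay above 1 and 2. Of the myogenic genes left out by the rule, myf5 had 62.2, 98.6, 59.8 and 94.3 CPM and myod1 had 23.6, 33.6, 16.5 and 28.0 CPM.

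The gene twist1, a regulator of mesenchyme and cranial neural crest, had 34.7, 54.1, 39.2 and 56.0 CPM, a mean of 46.0 ± 10.6 CPM. The row that RefSeq names twist1b had 49.4, 93.1, 44.1 and 70.3 CPM. Libraries 2 and 4 were above 1 and 3 for both. In contrast, twist2 had 17.0, 14.8, 17.98 and 15.6 CPM and was lowest in library 2. The gene bhlha15 (Mist1), known from secretory cells in mouse, was placed in the mesoderm list by hand. It had 23.2, 59.6, 19.8 and 33.1 CPM, so that library 2 was 3.00 times library 3. Without library 2 its ratio was 1.67.

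The gene tcf21, which acts in epicardium and kidney, was the steadiest mesodermal gene, with 15.8, 16.3, 15.9 and 18.6 CPM and a highest to lowest ratio of 1.18. The gene hand1, which in mouse acts in the heart and lateral mesoderm, had 5.62, 6.43, 11.4 and 16.2 CPM, highest in library 4. The row named hand2 in RefSeq had 0, 18, 14 and 20 counts. The heart muscle genes listed as markers had another order: myl7 had 378, 204, 400 and 230 CPM and tnnt2 had 17.97, 6.68, 16.9 and 11.7 CPM, both lowest in library 2. The gene bhlha9 had 3.54, 4.32, 3.33 and 1.88 CPM, while msc had 0 to 8 counts and tcf24 0 to 3 counts.

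The row listed as tal1, a blood and endothelial regulator, had 4.77, 15.4, 4.57 and 18.1 CPM, from 124 to 634 counts, with libraries 2 and 4 clear above 1 and 3. Its highest to lowest ratio of 3.96 was the same without library 2, and was then the widest among the members with at least 50 counts in each of the other 3 libraries. A further row, LOC107384010, also has the symbol tal1 in RefSeq. It had 17.1, 10.6, 10.6 and 10.998 CPM, a ratio of 1.61, and was highest in library 1. The files do not say which row is which copy, so neither order can be given as that of tal1 as such. The row named tal2 had 5.89, 3.16, 5.72 and 2.25 CPM, with libraries 1 and 3 above 2 and 4. The row named npas4l, in zebrafish the cloche gene upstream of tal1 in blood and vessel precursors, had 0.616, 1.72, 0.354 and 1.27 CPM, from 12 to 71 counts. The row named lyl1 had 3 to 34 counts. Of the partners and targets, lmo2, a cofactor of Tal1, had 83.8, 139, 53.3 and 99.3 CPM, and gata2 had 0.206 to 1.48 CPM.

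All but one of the 6 Myc, Max and Mxd genes were expressed. Mxd and Mnt proteins compete with Myc proteins for Max and repress its targets. The gene mxd3 had 33.7, 30.5, 26.2 and 37.4 CPM, a mean of 31.9 ± 4.74 CPM. The gene myc had 9.39, 6.80, 14.5 and 13.9 CPM, with libraries 3 and 4 above 1 and 2, and mycl had 11.6, 7.72, 10.1 and 11.6 CPM. The repressor mnt had 9.47, 3.81, 6.60 and 7.08 CPM and mxd1 had 3.66, 1.04, 3.95 and 3.39 CPM. The genes myc, mycl, mnt, mxd1 and mxd4 were all lowest in library 2. Named through RefSeq, mycn had 18.6, 21.8, 16.6 and 22.97 CPM, and mycla had 20.4, 30.4, 23.1 and 35.7 CPM.

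The row named max in RefSeq, which codes for the shared partner of the network, had few counts, from 10 in library 1 to 166 in library 2. Its levels were 0.385, 4.03, 0.825 and 2.85 CPM, a ratio of 10.5 between the highest and the lowest library. Of 5 further network genes chosen, the 3 listed by symbol, mlx, mlxip and mga, were expressed, with means of 36.9 ± 6.69, 17.9 ± 4.88 and 16.5 ± 4.27 CPM.

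In the MiT/TFE and USF group, 4 of 5 genes were expressed. The widely made factor usf1 had 51.3, 79.9, 39.3 and 60.3 CPM, a mean of 57.7 ± 17.1 CPM. The lysosomal regulator tfe3 had 13.6, 8.74, 9.90 and 10.8 CPM, and the row named tfe3a had 12.1, 13.4, 10.4 and 11.3 CPM. The related tfeb had 0.308, 0.146, 0.236 and 0.0671 CPM, from 2 to 8 counts. The gene usf3 had 3.35, 1.48, 5.98 and 5.36 CPM and had the widest spread of all bHLH genes with 50 counts in every library, at 4.04 times, and 1.79 times without library 2. The gene tfec had 2.16, 4.69, 1.68 and 1.78 CPM, with library 2 apart from the others. Of the rows named for Mitf, the pigment cell regulator, mitfa had 0.943 to 2.35 CPM and mitfb 5.51 to 9.37 CPM. Both Mitf targets that are symbols of the table were expressed: tyr had 2.26 ± 0.466 CPM and dct had 4.84 ± 2.05 CPM (SD, n = 4).

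PAS proteins join the bHLH domain to a sensor or dimer domain. Of 9, 4 were expressed. The oxygen-regulated hif1a had 11.9, 10.9, 14.7 and 13.9 CPM, and the circadian gene clock had 11.3, 10.0, 12.9 and 10.2 CPM. These were the steadiest in the group, with ratios of 1.36 and 1.28. The row named hif1al had more counts than hif1a in every library, with 87.0, 46.5, 97.2 and 81.3 CPM. The general partner arnt2 had 15.0, 4.56, 10.1 and 7.11 CPM, whereas the row named arnt had 15 to 37 counts.

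The partner of clock, arntl, had 1.73, 4.10, 1.77 and 1.61 CPM, from 45 to 169 counts, and was highest in library 2. The neuronal gene npas1 had 2.12, 0.801, 2.65 and 2.51 CPM. The row listed as epas1, the HIF2 alpha gene, had 0 to 4 counts and the row named epas1b had 5.23, 0.995, 3.89 and 2.88 CPM. The genes npas3, npas4 and ahrr had at most 18 counts in any library. Among genes of the same pathways outside the rule, both listed HIF prolyl hydroxylases were expressed, egln1 at 4.55 ± 0.551 CPM and egln3 at 13.7 ± 3.15 CPM, as were all 3 listed clock genes, per1, per3 and cry1. The light- and clock-driven repressor bhlhe41 had 0.693, 0.0971, 0.295 and 0.604 CPM, from 4 to 18 counts, while the row named bhlhe40 had 4.62, 5.56, 3.36 and 5.57 CPM.

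Spread between pools was read over genes with at least 50 counts in every library, a limit met by 35 of the 54 rows. In 19 of these 35, or 54.3%, the highest library had at least 2 times the CPM of the lowest. Over all 12443 rows of the table with that depth the share was 34.6%. The median ratio was 2.04 over the 35 rows and 1.76 over all such rows. The median coefficient of variation was 30.7% over the 35 rows and 24.6% over all such rows. As a multiple of what counting alone gives, the median was not higher for the members, at 5.16 against 5.40. That multiple grows with the counts of a gene, so it does not compare sets of unlike depth on equal terms. By role, the 2-fold limit was reached by 3 of 3 Id genes, 5 of 9 neurogenic genes and 3 of 8 mesoderm list genes. Also reaching it were 2 of 4 Myc network genes, 3 of 4 MiT/TFE and USF genes, 1 of 3 PAS genes, tal1 and tcf12. Both rows that are not bHLH genes stayed under it. No test of the difference in shares was made, and the members are not independent of each other.

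Leaving out library 2 lowered this count most. Without it, 6 of 37 rows (16.2%) reached 2-fold, against 10.8% of all rows: tal1, hand1, olig3, arnt2, nhlh2 and id3. With TMM-scaled totals the count was 16 of 35 and 33.0% of all rows. The genes usf1 and id3 were under the limit with TMM and with DESeq2 size factors, and atoh8 with TMM. The ratio of id1 was 3.06 with all libraries and 1.74 without library 2. Of the 33 bHLH genes with this depth, 31 had a coefficient of variation above what counting alone gives, the exceptions being neurod4 and atoh1. The same held for 12274 of all 12443 rows of this depth, so the count is no result about bHLH genes as a class. This compared point values and was not a test. Above 2 times counting were 29 of the 33 genes and 11360 of the 12443 rows.

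**Figure D3:**
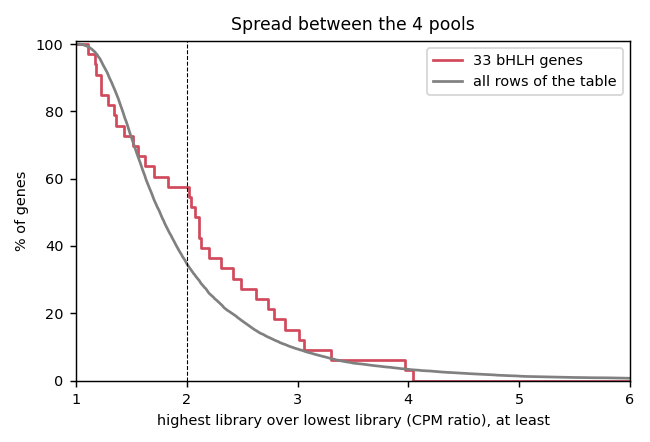
Share of genes (%) whose highest library has at least a given multiple of the CPM of the lowest library, for 33 bHLH genes (red) and all rows of the table (grey) with at least 50 counts in every library. At the dashed line, 2-fold, 57.6% of the bHLH genes and 34.6% of all rows remain.

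The libraries in which the genes were highest were also read against the whole table. Of the 35 rows, 4 were highest in library 1, 12 in library 2, 6 in library 3 and 13 in library 4. Over all rows of that depth, 33.7% were highest in library 1, 34.6% in library 2, 13.9% in library 3 and 17.8% in library 4. The background of libraries 1 and 3 moved most with the scaling. With TMM-scaled totals, libraries 1 to 4 were highest for 20.4%, 36.2%, 28.8% and 14.6% of all rows. The 35 rows then counted 3, 12, 6 and 14. No test of these shares was made. On library totals the median row of library 1 lay 0.12 above the mean of the other libraries on the log2 scale and that of library 3 fell by 0.15 below it. With TMM these shifts were -0.02 and 0.03. The highest library of a single gene hardly depended on this choice, and mycl alone among the 35 rows turned, to library 4.

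**Figure D4:**
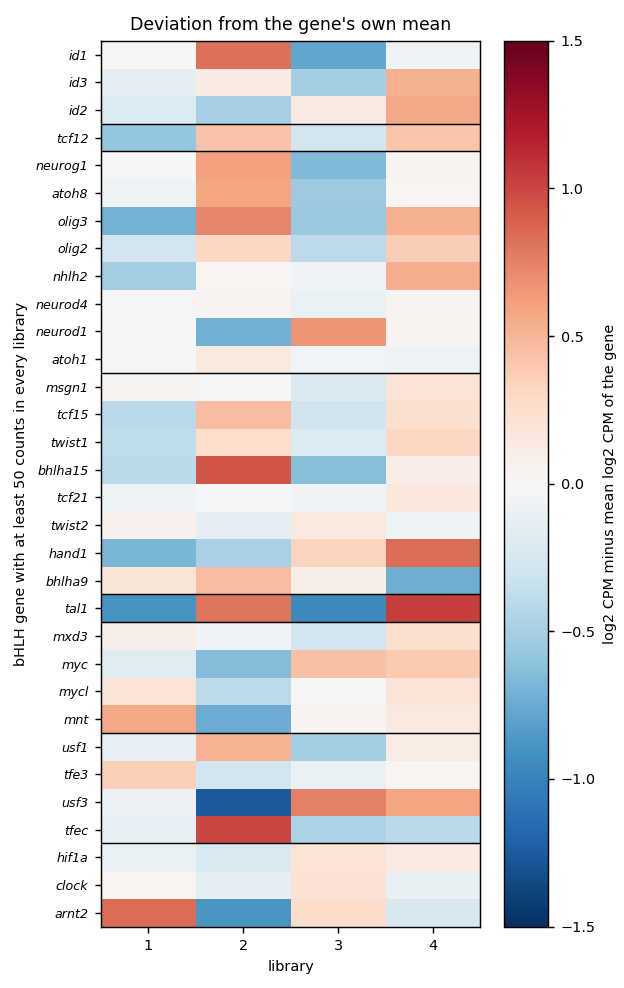
Deviation of each library from the gene's own mean on the log2 CPM scale (colour) for 32 bHLH genes with at least 50 counts in every library, with black lines between roles. Library 2 is above the gene's mean for id1, neurog1, olig3, bhlha15 and tal1 and below it for mnt, myc, usf3 and arnt2.

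By role, 5 of 9 neurogenic genes were highest in library 2: neurog1, atoh8, olig3, neurod4 and atoh1. Of these, neurod4 and atoh1 varied less than counting alone gives, so their highest library carries no weight. On the mesoderm list, 3 of 8 genes (tcf15, bhlha15 and bhlha9) were highest in library 2. Of the mesoderm list, 4 further genes were highest in library 4. None of the 4 Myc network genes and none of the 3 PAS genes of this depth was highest in library 2. In that library 3 of the 4 Myc network genes and 3 of the 3 PAS genes were lowest. Over all 12443 rows of this depth, 4740 were lowest in library 2, and lists this short are not read against that share. Library 2 was also the deepest library, and marker levels differed between the pools too. The summed heart markers were 396, 211, 416 and 241 CPM in libraries 1 to 4, mostly from myl7. The summed paraxial mesoderm markers were 138, 230, 129 and 217 CPM. Of the neural tube markers, sox3 was highest in library 2, with 98.9, 201, 93.1 and 174 CPM. The other listed ones, sox2 and pax6, were lowest there, at 9.44 and 8.64 CPM. The part of these marker levels in the bHLH values was not tested.

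In all, 28 rows listed only by a LOC number carry a RefSeq symbol of the same families, and 17 of them (60.7%) were expressed. The same limit was met by 53.7% of all rows and 75.0% of rows with a gene symbol. A share over LOC rows alone was not computed, so the 60.7% is not read as a result about these families. The 28 rows summed to 513, 526, 451 and 538 CPM in libraries 1 to 4. The names were matched by gene number in the NfurGRZ-RIMD1 assembly, not the Nfu_20140520 genome that the study lists, so they were used as names only. Of the 17 with at least 50 counts in every library, 6 had a highest library at least 2 times the lowest, a share of 35.3% that is close to the 34.6% over all rows. With these rows added, 25 of 50 genes reached 2-fold.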

How the data were processed

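RNA was sequenced from 4 pools of African turquoise killifish embryos. According to the methods and the submitters' processing notes, the authors trimmed adaptors with Trim Galore 0.4.5, aligned with STAR 2.7.1a, kept reads aligned to a single locus with SAMtools 1.5 and counted with featureCounts (Subread 2.0.1). Reads shared by near-identical copies are thus lost from both. The study lists Nfu_20140520 as its African turquoise killifish genome. The cDNA was amplified by PCR and carries no molecular identifiers, so intervals and floors cover counting error only. The authors deposited whole-number counts per gene without normalization, and these were used as deposited. Whether reads were counted by strand is not stated.

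Counts were divided by library totals to give CPM (Python 3.11.15 with pandas 2.3.3, scipy 1.17.1, numpy 2.4.6, and matplotlib 3.10.9 for plots). TMM factors (edgeR 4.0.16) and size factors (DESeq2 1.42.0) in R 4.3.3 served as alternatives. One group allows no contrast, so no test between groups was run. Calls used 1 CPM in every library, and a 2-fold ratio at 50 counts in every library. The code for these calls was tested on simulated counts. Named genes were, per role, those with most reads, all Id and E proteins, and those of 2-fold spread. Others were added after their values were seen. Members and lists were chosen with earlier results of these data known. The planned match of LOC rows was widened, after seeing the data, to allow a final a or b, which added tcf3b and mntb. Roles were assigned by hand. One member and a related LOC row entered the counts but are not reported here by name or drawn singly. The lyretail and red-striped table and 130 single-embryo libraries were not analysed here. Of 14589 LOC rows, 10480 matched the RefSeq table by number and 5257 have a symbol there. No member names differed only in a final a and b, so copy ratios were not computed. Nothing says that the pools are independent, so the SD measures the spread between these 4 libraries.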

Additional observations from a re-analysis of the deposited data

Results flagged for a closer look

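In 52 sets of 4 library values, each for a row taken by symbol or by RefSeq name with at least 50 counts in every library, 3 held a library whose gap to the others passed the 95% limit of Dixon's test for 4 values. Chance gives about 1 in 20, so 3 of 52 is near what chance gives. The share over all rows of this depth is not given here. The gene tfec had 4.69 CPM in library 2, against 1.68 to 2.16 CPM in the other 3. The row named tcf3b had 18.4 CPM in library 2, against 46.0 to 49.3 CPM. The tal1 row LOC107384010 had 17.1 CPM in library 1, against 10.6 to 10.998 CPM. No cause was tested.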

How the results depend on the processing

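The median level (6.03 CPM) stayed within 5.79 to 6.21 CPM with each library left out. Expressed rows, 38, numbered 24 at 5 CPM and 38 to 39 with each library left out. With LOC rows added 55 passed, and 54 by the unwidened match. At 1 CPM in every library, 53.7% of all rows and 75.0% of rows with a symbol passed. The shares at 5 CPM or with a library left out were not computed. These counts are therefore no result about bHLH genes as a class. Rows of at least 2-fold spread, 19 of 35, numbered 8 of 19 at a limit of 200 counts, against 30.9% of all rows. At 1 count they numbered 31 of 47, against 50.4% of all rows. The number of rows tested also differs by construction at these limits. They numbered 6 to 16 with each library left out, the lowest without library 2. The share over all rows was then 10.8% to 32.0%, also lowest without library 2. The mean Id to E protein log2 ratio was 6.14 with LOC rows added, which brings in tcf3b, 9.69 with id4 alone added, as the unwidened match gives, and 9.42 to 9.76 with each library left out. Of 66 mean levels of 33 single genes under the other scalings, 0 moved by 1 SD or more. This check could hardly fail. The TMM factors lay between 0.913 and 1.08, and the size factors were set to the geometric mean of the library totals. A mean over the 4 libraries therefore moves little, so no conclusion is drawn from the 0. Adding LOC rows was planned, but the widened match that takes tcf3b, the unwidened one and the other limits for LOC rows were chosen after seeing the data. Length correction could not be made, since no protein or transcript table was given. Rows under 50 counts are limited by depth. No paired analysis was possible because one group was analysed, with no contrast in which replicate numbers could pair libraries.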
